A study of Homo sapiens with 18 samples.

Results

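The genes described here are 51 components of the DNA replication machinery and of the passage from G1 into S phase, measured in the MCF10A model of early mammary transformation. They were chosen by name, one probe set per gene being kept, the one with the highest mean log2 intensity over the 18 arrays. They are 51 of the 19775 genes that the Affymetrix HG-U133 Plus 2.0 arrays name through a probe set with a single gene, and all 51 lay above the level that 12171 genes passed to be tested. MCF10A cells are nonmalignant human mammary epithelial cells with a CDKN2A deletion and MYC amplification. M1B26 cells were made from MCF10A cells sorted for the BMP receptor BMPR1B, exposed for a long time to BMP2 and IL6 and expanded from soft-agar clones. MC26 cells are MCF10A cells that had the same 2 factors without that first sort, and MCF10A-CT cells are the control line, kept in standard medium. From each of the 3 lines RNA was taken from CD10+ cells, from CD10- cells and from unsorted cells, which gave 9 groups of 2 arrays. CD10, encoded by MME, is a membrane peptidase. The labels call the arrays of a group biological replicates without naming the cultures, so the p-values measure only the spread between these arrays.

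Replication of the genome is prepared in G1, when the origin recognition complex, CDC6 and CDT1 load the ring-shaped MCM helicase onto DNA. In S phase the helicase is switched on by CDC7, MCM10, CDC45 and the GINS complex, and the polymerases copy DNA with the clamp PCNA, the clamp loader RFC and the single-strand binding protein RPA. Most of these genes are transcribed under E2F factors as cells leave G1, so that as a class they are read as a mark of cycling cells. Levels here are bulk intensities, and fewer cells in cycle cannot be told apart from less RNA of these genes per cell.

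The arrays had the same median intensity of 16.7, and the Pearson correlation between the arrays of a group lay between 0.949 and 0.979 on the log2(intensity + 1) scale. MME followed the gates, with 1269 and 1021 in M1B26 CD10+ cells against 56.4 and 15.95 in M1B26 CD10- cells, between 69.85 and 90.7 in MC26 CD10+ cells against 6.39 to 27.85 in MC26 CD10- cells, and 48.3 and 65.0 in MCF10A-CT CD10+ cells against 9.73 and 11.25 in MCF10A-CT CD10- cells. Measures of RNA handling separated the populations without overlap in a pair of cases. The ratio of 3' to 5' ACTB signal was 1.11 to 1.34 on the 12 sorted arrays and 1.55 to 2.14 on the 6 unsorted ones. The spiked dap transcript read 832 to 2284 on sorted arrays and 483 to 531 on unsorted ones, whereas the GAPDH ratio overlapped (0.930 to 1.06 against 0.946 to 1.10). Sorted cells were stained and passed through a cytometer after trypsin, and unsorted cells were frozen directly. The study added spiked transcripts to the RNA before amplification, so that their readings reflect steps after the cells were collected. In every line, therefore, the sort, its handling and the array processing cannot be told apart. In the replication genes, 4 arrays stood apart. Replicate 2 of sorted MCF10A-CT read below replicate 1 in both gates for 46 of the 51 genes (44.8% of all genes tested), and unsorted replicate 1 of MC26 and of M1B26 read below replicate 2 in both lines for 50 of 51, RFC1 being the exception (37.6% of all genes tested). The ACTB ratio was 1.55 to 1.94 on unsorted replicate 1 of MC26 and M1B26 and 1.98 to 2.02 on their replicate 2, and its part in the values was not tested. For several results that rest on these arrays, medians are given with and without them. The 6 of 9 listed mammary epithelial markers with a probe set of their own summed to 15470 to 18200 on the 4 sorted MCF10A-CT arrays and to 9573 to 27160 on the 14 others, with leukocyte sums of 341 to 537 against 183 to 513.5 and endothelial sums of 40.7 to 56.6 against 36.2 to 58.0. The 8 stromal markers summed to 306 to 578.5 on the 4 sorted MCF10A-CT arrays, against 148 to 180 on the 2 unsorted ones. The 2 of them that were tested, DCN and COL1A1, were higher in sorted MCF10A-CT cells at an unadjusted p under 0.05 and did not pass after adjustment, and their part in the replication gene values was not tested.

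The level of the 51 genes was lowest in sorted MCF10A-CT cells. Each gene was centred on its mean over the 18 arrays, and the mean over genes was taken per array, given here for replicates 1 and 2. M1B26 gave 0.27 and 0.45 in CD10+ cells, 0.86 and 0.64 in CD10- cells, and -0.61 and 0.43 in unsorted cells. MC26 gave 0.47 and 0.73 in CD10+ cells, 0.75 and 0.69 in CD10- cells, and -0.42 and 0.71 in unsorted cells. MCF10A-CT gave -0.90 and -1.77 in CD10+ cells, -1.10 and -1.98 in CD10- cells, and 0.47 and 0.29 in unsorted cells. All 4 sorted MCF10A-CT arrays thus lay below the 14 others.

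**Figure D1:**
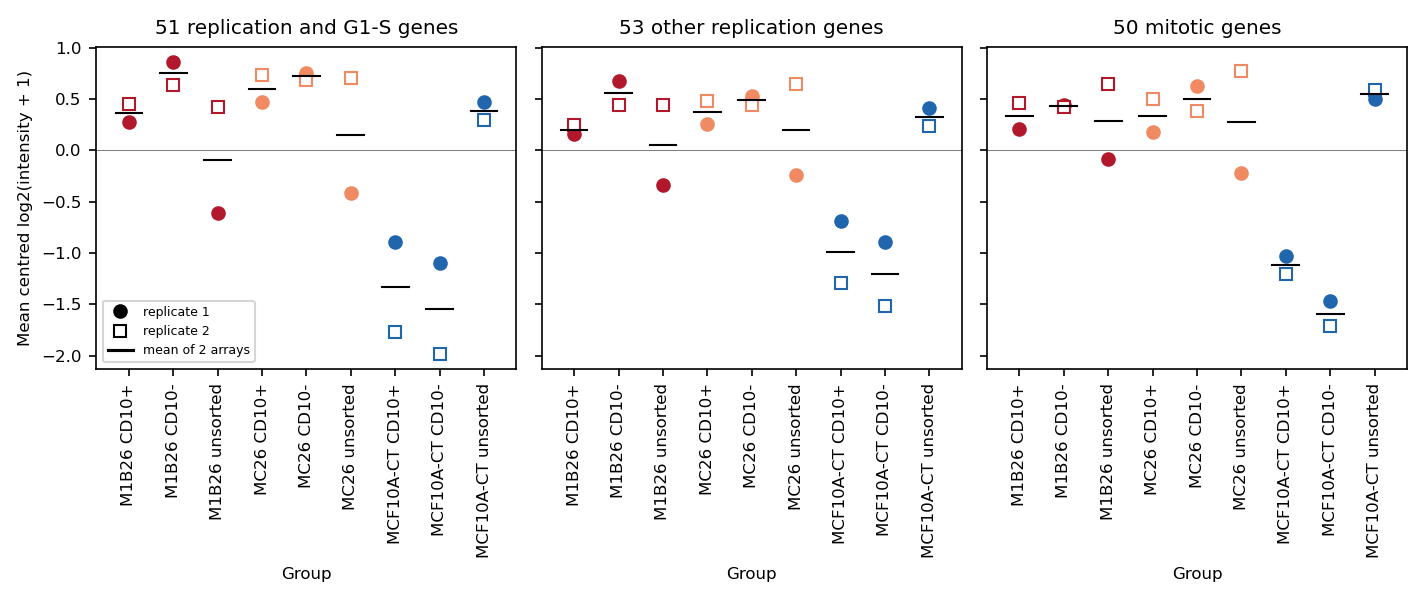
Mean centred log2(intensity + 1) per array (vertical axis) of the 51 replication and G1-S genes, of 53 other replication genes and of 50 mitotic genes, in the 9 groups (horizontal axis). Circles are replicate 1, squares replicate 2 and bars the mean of 2 arrays; the 4 sorted MCF10A-CT arrays lie lowest in each panel, at -0.90 to -1.98 for the 51 genes.

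Ordered from low to high, the group means were -1.54 (SD 0.62) in MCF10A-CT CD10- cells, -1.33 (SD 0.61) in MCF10A-CT CD10+ cells, -0.09 (SD 0.73) in unsorted M1B26 cells, 0.15 (SD 0.80) in unsorted MC26 cells, 0.36 (SD 0.12) in M1B26 CD10+ cells, 0.38 (SD 0.12) in unsorted MCF10A-CT cells, 0.60 (SD 0.18) in MC26 CD10+ cells, 0.72 (SD 0.04) in MC26 CD10- cells and 0.75 (SD 0.16) in M1B26 CD10- cells (n = 2 each). Neighbours in this order differed by less than the larger of their SDs, except at 2 steps. Unsorted M1B26 cells stood above MCF10A-CT CD10+ cells by more than any of these SDs, and MC26 CD10+ cells stood above unsorted MCF10A-CT cells by slightly more than theirs. The replicates of a group differed 2.18-fold in unsorted MC26 cells, 2.05-fold in unsorted M1B26 cells, 1.84-fold in MCF10A-CT CD10- cells and 1.83-fold in MCF10A-CT CD10+ cells. For single genes, the 4 sorted MCF10A-CT arrays read below all 14 others in 36 of 51, against 11.4% of all genes tested. The 15 exceptions were MCM2, MCM10, CDT1, ORC6, GINS4, POLD1, POLE, RFC1, RFC5, TK1, CHAF1A, SLBP, E2F1, E2F8 and FAM111B.

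**Figure D2:**
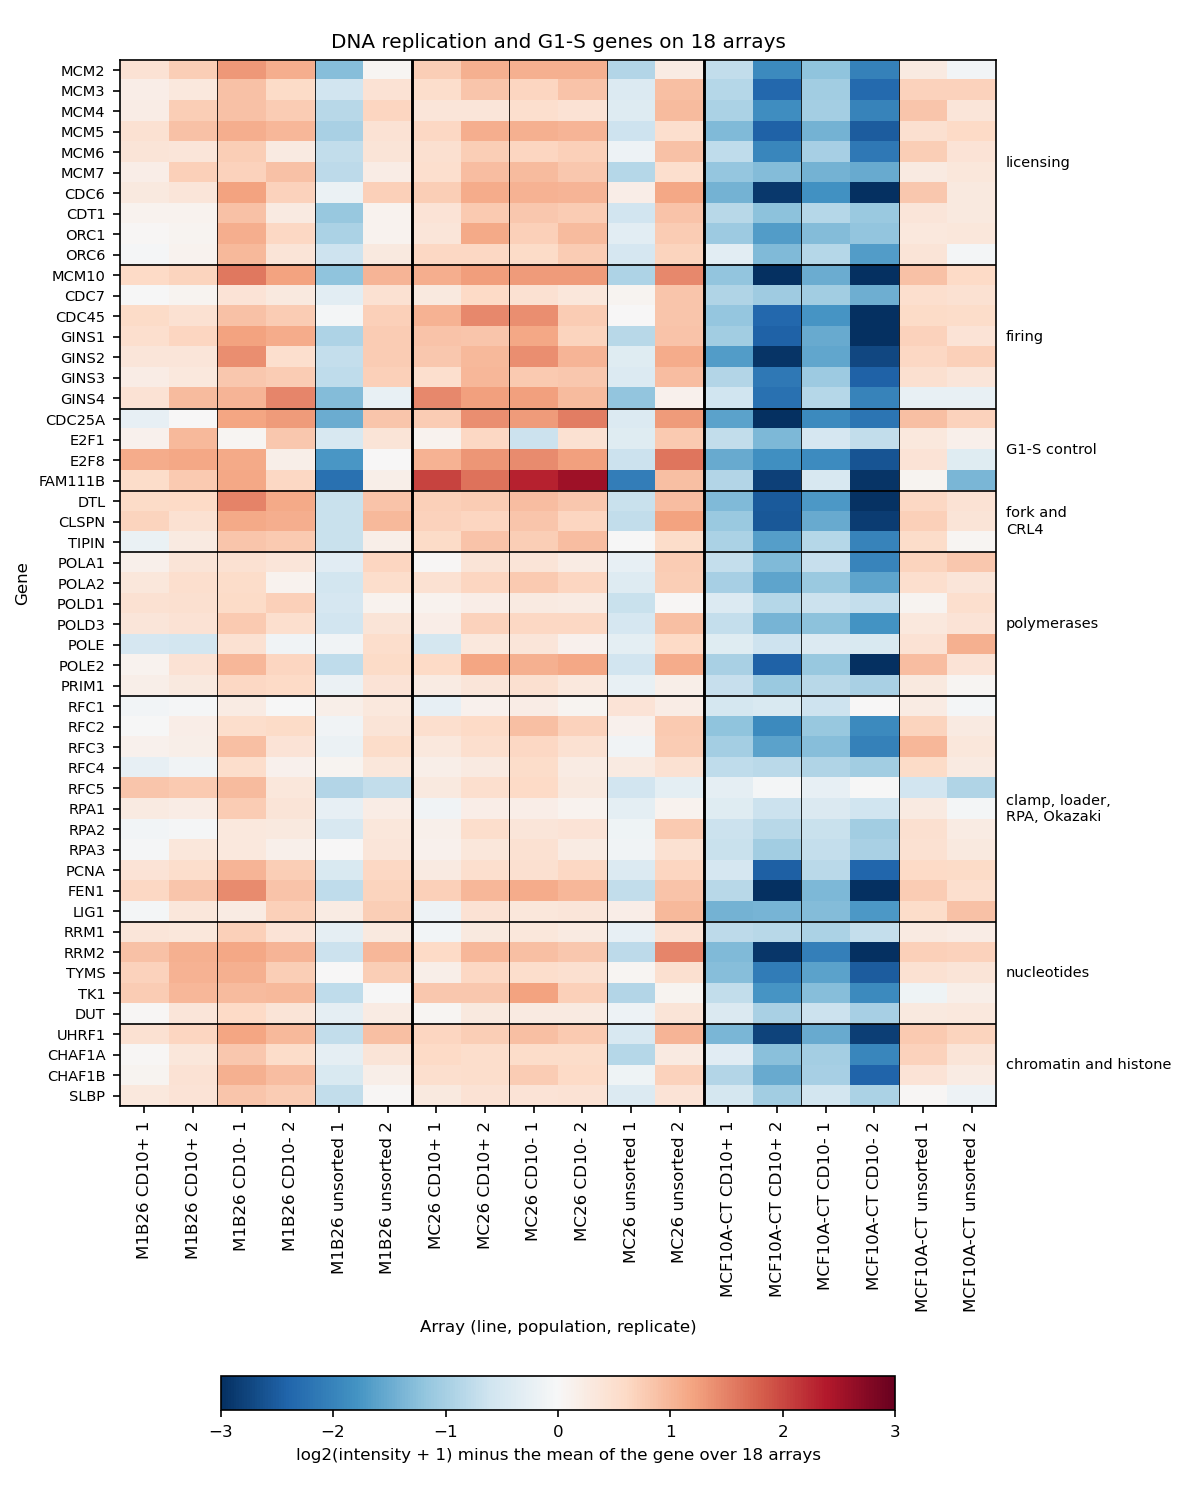
Log2(intensity + 1) of each of the 51 genes (rows, grouped by role) on each of the 18 arrays (columns, in pairs by group), centred on the gene's mean over all arrays (colour scale). The 4 sorted MCF10A-CT arrays are low across nearly all roles. RFC1 and RFC5 are rows in which these arrays do not all lie below the unsorted MCF10A-CT ones. Unsorted replicate 1 of M1B26 and MC26 lies below replicate 2 in every row but RFC1.

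The next comparison sets sorted against unsorted cells of the control line, with both gates pooled. It holds the sort, its handling and the array processing together. In limma across all 12171 genes, 46 of the 51 were lower in sorted cells at an adjusted p under 0.05, where 15.6% of all genes tested were lower, and 1 of 51, RFC5, was higher, where 6.58% were. The median of the 51 genes was -1.75 on the log2 scale, or 3.36-fold lower, and that of all genes -0.13. GINS4, FAM111B, E2F1 and RFC1 did not pass. Leaving out replicate 2 of sorted MCF10A-CT in both gates lowered the calls over all genes tested as well as those of the 51. Without replicate 2 of sorted MCF10A-CT in both gates, a setting chosen after seeing the data, the median of the 51 was -1.44. That setting leaves 1 array in each sorted group, so that no count of calls is given for it. The calls of the 51 also fell without unsorted MCF10A-CT replicate 1.

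Among the 10 licensing genes, which build the loaded helicase in G1, all 10 were lower in sorted MCF10A-CT cells (median -1.85). CDC6, the ATPase that works with ORC to load the helicase, read 139.9 and 49.6 in CD10+ cells and 105 and 36.6 in CD10- cells, against 659 and 458 in unsorted cells. All 4 sorted arrays lay below both unsorted ones, and the difference was -2.92 ± 0.43 (SE, limma adjusted p = 0.000683). MCM2, a subunit of the helicase ring, read 415 and 184 in CD10+ cells and 300.2 and 169.9 in CD10- cells, against 841 and 657 in unsorted cells (-1.57 ± 0.39, limma adjusted p = 0.0117). The other ring subunits lay between -2.45 for MCM5 and -1.66 for MCM7. CDT1, the second loading factor, fell by 1.34 and ORC6, the smallest ORC subunit, by 1.21, the smallest change of the role. ORC6 belongs to the signature that the study chose on these same sorted MCF10A-CT arrays as higher in CD10+ cells, so that its CD10 values are no independent evidence.

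The 7 genes of origin firing gave 6 lower (median -2.56). MCM10, which is needed to switch the loaded helicase on, read 98.3 and 22.2 in CD10+ cells and 79.1 and 6.99 in CD10- cells, against 414.5 and 338 in unsorted cells. Its difference, -3.43 ± 0.82 (SE, limma adjusted p = 0.00938), was the largest among the 51. CDC45, a cofactor of the active helicase, read 90.4 and 39.3 in CD10+ cells and 59.3 and 7.003 in CD10- cells, against 301.5 and 301 in unsorted cells (-3.05 ± 0.56, limma adjusted p = 0.00225). Both genes lay at background in CD10- replicate 2, below the level of 14.3 that genes had to pass on average, and 3 more, CDC25A, CLSPN and FAM111B, did so on at least 1 of the sorted MCF10A-CT arrays. The GINS subunits, which join CDC45 and the MCM ring, fell by 2.90 for GINS2, 2.56 for GINS1 and 2.05 for GINS3, whereas GINS4 did not pass (-1.20, limma adjusted p = 0.0764).

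Nucleotide supply was lower for all 5 genes (median -1.44). RRM2, the S-phase subunit of ribonucleotide reductase, read 761 and 254 in CD10+ cells and 464 and 156 in CD10- cells, against 3162 and 3104 in unsorted cells (-3.18 ± 0.57, limma adjusted p = 0.00213). Its partner RRM1 fell by 1.06. TYMS, thymidylate synthase, read 940.1 and 527 in CD10+ cells and 744.5 and 399.7 in CD10- cells, against 3097 and 2986 in unsorted cells (-2.29 ± 0.28, limma adjusted p = 0.000195). TYMS had the smallest p of the 51.

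At the fork, all 7 polymerase genes were lower (median -1.64), with POLE2, a subunit of the leading-strand polymerase, at -2.65 and POLD1, the catalytic subunit of the lagging-strand polymerase, at -0.95. Of the 11 genes of the clamp, its loader, RPA and Okazaki fragment processing, 9 were lower (median -1.30). PCNA, the sliding clamp, read 1785 and 466 in CD10+ cells and 1448 and 486 in CD10- cells, against 3841 and 3769 in unsorted cells (-2.12 ± 0.47, limma adjusted p = 0.00655). FEN1, the flap nuclease of Okazaki fragments, read 432 and 88.7 in CD10+ cells and 298 and 64.5 in CD10- cells, against 1293 and 1089 in unsorted cells, a difference of -2.84. In PCNA and FEN1 alike, replicate 2 of each gate lay far below replicate 1. RFC1, the large loader subunit, read 278 and 294 in CD10+ cells and 260.0 and 409 in CD10- cells, against 478 and 383 in unsorted cells. Its groups overlapped, and it did not pass (-0.49 ± 0.20, limma adjusted p = 0.0959).

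All 3 genes of fork protection and of the CRL4 ubiquitin ligase were lower (median -2.56), as were all 4 of chromatin and histone supply (median -1.72). DTL, the CRL4 adaptor that directs CDT1 to destruction, fell by 2.67, CLSPN, the checkpoint mediator claspin, by 2.56, and UHRF1, which brings DNA methylation to new DNA, by 2.84. SLBP, which binds replication-dependent histone mRNA, fell least of these, by 0.71 (limma adjusted p = 0.0444). Of the 4 genes of G1-S control, CDC25A, the phosphatase that activates CDK2, fell by 3.04, although its other probe sets gave -2.07 and -0.69, and E2F8, a repressive E2F, by 1.98. E2F1, the activating factor, read 25.5 and 16.5 in CD10+ cells and 30.3 and 25.5 in CD10- cells, against 53.9 and 48.0 in unsorted cells (-1.06 ± 0.42, limma adjusted p = 0.083). FAM111B, a serine protease gene, had the widest error of all (-1.14 ± 0.84, limma adjusted p = 0.351).

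**Figure D3:**
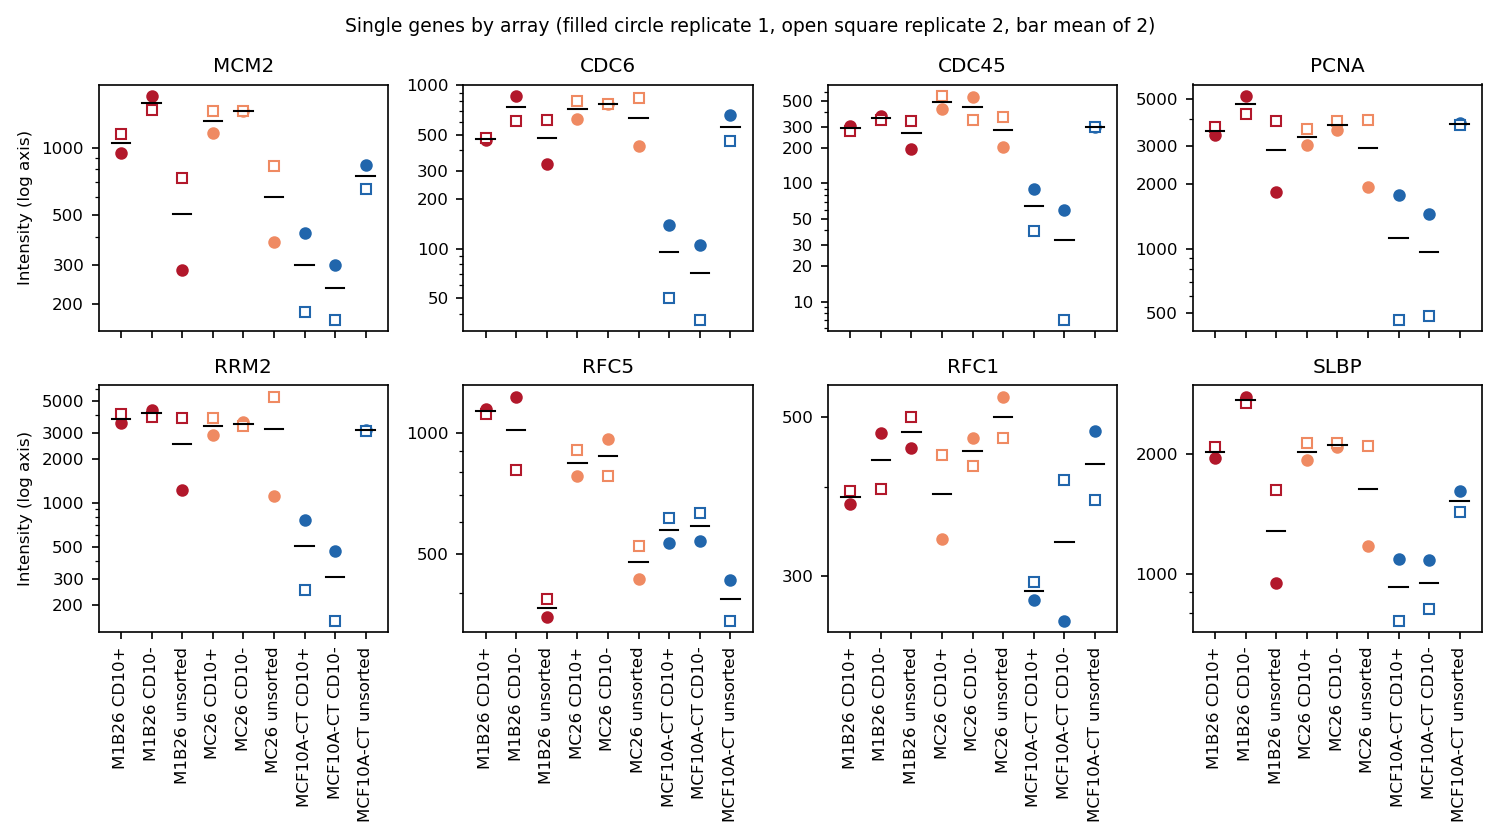
Intensity on a log axis (vertical) of MCM2, CDC6, CDC45, PCNA, RRM2, RFC5, RFC1 and SLBP in the 9 groups (horizontal), with replicate 1 as circles, replicate 2 as squares and bars for the mean of 2 arrays. CDC6 and RRM2 separate sorted MCF10A-CT from unsorted MCF10A-CT cells by several-fold, whereas RFC1 spans 260.0 to 534 over all 18 arrays and RFC5, on the probe set shown, is lowest in unsorted cells.

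RFC5, a small subunit of the clamp loader, was the 1 gene called higher, and its probe sets disagreed. The brightest of its 3, which the rule kept, read 534 and 616 in CD10+ cells and 540.5 and 633 in CD10- cells, against 432 and 342 in unsorted MCF10A-CT cells (0.59 ± 0.20, limma adjusted p = 0.0427). On the second the same cells gave 202 and 133 in CD10+ cells and 188 and 93.9 in CD10- cells, against 890 and 656 in unsorted cells, a difference of -2.37, and on the third the difference was -2.79. With the mean over probe sets, RFC5 stood at -1.52 ± 0.27 (limma adjusted p = 0.00268), so that its direction depends on the probe set. On a second probe set of E2F1 all 4 sorted MCF10A-CT arrays read 4.70 to 10.1, below the level of testing, against 63.3 and 37.2 in unsorted cells, so that no size is given. Over all members, 29 genes had several probe sets, and of the 39 others above the level of testing, 38 lay below 0 in this comparison (median -2.04), the exception being 1 of POLA2 at 0.39. Since 20 of the 51 probe sets kept may bind related transcripts, the values of those genes may hold signal of relatives.

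The promoters were searched for 4 forms of the element that E2F factors bind, since E2F targets are the class to which most of these genes belong. Promoters, from 250 bases before to 50 after the gene start, were taken from RefSeq on GRCh38.p14 and were found for 43 of the 51 genes, all but MCM4, MCM5, GINS4, POLD3, RPA2, RPA3, E2F8 and FAM111B. An E2F element was counted as TTTGGCGC, TTTGCCGC, TTTCGCGC or TTTCCCGC on either strand. It stood in 22 of the 43 promoters (51.2%), against 908 of 27305 promoters of all genes (3.3%) and 534 of 9915 promoters of genes tested (5.4%). The CCAAT box, on either strand, stood in 26 of 43 (60.5%), against 35.7% of all promoters and 36.9% of those of genes tested. The CHR element of G2-M genes, TTTGAA or TTCGAA on either strand, stood in 2 of 43 (4.7%), MCM6 and RRM1, against 16.6% of all promoters and 11.5% of those of genes tested. None of these motifs contains another. Of the 7 genes with the widest differences, 6 promoters are given 5' to 3' on the gene's strand, to show the element where it occurs and the genes of that rank without it (CDC45, also without it, is left out). The E2F element is in capitals. CDC25A lies at chr3:48188368-48188667 on the minus strand, with its element starting 44 bases before the gene start.
CDC25A: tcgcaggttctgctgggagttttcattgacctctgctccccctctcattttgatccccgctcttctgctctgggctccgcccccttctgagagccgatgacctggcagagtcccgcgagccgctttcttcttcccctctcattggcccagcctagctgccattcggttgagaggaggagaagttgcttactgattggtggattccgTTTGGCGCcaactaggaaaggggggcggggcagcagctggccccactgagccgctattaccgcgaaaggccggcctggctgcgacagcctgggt
CDC6 lies at chr17:40287629-40287928 on the plus strand, with its element at base 8 of the transcribed part.
CDC6: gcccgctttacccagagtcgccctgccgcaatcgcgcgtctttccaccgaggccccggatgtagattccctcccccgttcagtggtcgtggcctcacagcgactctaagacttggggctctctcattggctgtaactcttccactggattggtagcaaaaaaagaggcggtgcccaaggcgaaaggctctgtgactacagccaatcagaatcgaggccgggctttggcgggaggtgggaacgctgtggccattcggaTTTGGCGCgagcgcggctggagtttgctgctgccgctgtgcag
GINS2 lies at chr16:85688905-85689204 on the minus strand, with its element in reverse orientation from 31 bases before the start.
GINS2: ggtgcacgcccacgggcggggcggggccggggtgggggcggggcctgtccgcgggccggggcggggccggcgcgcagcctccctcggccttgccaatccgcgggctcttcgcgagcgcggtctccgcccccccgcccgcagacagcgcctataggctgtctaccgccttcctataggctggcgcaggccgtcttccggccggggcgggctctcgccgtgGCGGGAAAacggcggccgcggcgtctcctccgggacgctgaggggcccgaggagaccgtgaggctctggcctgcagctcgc
UHRF1 lies at chr19:4909251-4909550 on the plus strand, with its element in reverse orientation from 14 bases before the start.
UHRF1: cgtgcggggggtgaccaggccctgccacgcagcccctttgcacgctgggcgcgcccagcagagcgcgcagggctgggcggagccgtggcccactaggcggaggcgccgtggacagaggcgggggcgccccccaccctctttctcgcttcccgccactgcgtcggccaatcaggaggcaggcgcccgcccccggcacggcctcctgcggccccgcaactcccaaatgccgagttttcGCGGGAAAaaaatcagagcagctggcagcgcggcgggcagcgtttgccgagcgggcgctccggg
MCM10 lies at chr10:13161308-13161607 on the plus strand and has none of the 4 forms in this window.
MCM10: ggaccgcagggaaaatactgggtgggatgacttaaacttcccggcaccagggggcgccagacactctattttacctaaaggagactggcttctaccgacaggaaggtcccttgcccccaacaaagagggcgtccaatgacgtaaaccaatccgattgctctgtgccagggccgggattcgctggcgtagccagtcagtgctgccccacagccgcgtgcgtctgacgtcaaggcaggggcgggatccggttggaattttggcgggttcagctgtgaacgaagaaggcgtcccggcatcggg
RRM2 lies at chr2:10122489-10122788 on the plus strand and has none of them either.
RRM2: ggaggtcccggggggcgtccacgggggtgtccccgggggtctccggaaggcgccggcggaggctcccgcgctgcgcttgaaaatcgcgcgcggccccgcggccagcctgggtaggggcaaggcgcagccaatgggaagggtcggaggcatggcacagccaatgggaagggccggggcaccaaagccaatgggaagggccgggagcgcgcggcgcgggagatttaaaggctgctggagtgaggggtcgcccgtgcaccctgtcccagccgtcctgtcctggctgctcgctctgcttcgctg
The 22 genes with the element had differences between sorted and unsorted MCF10A-CT cells from -3.04 to -1.06 (median -2.17), and the 21 without it from -3.43 to 0.59 (median -1.44). These ranges overlap, and MCM10 and RRM2, the genes with the widest differences of all, stand among those without any of the 4 forms. Other forms were not searched. The MCM10 promoter holds TTTGGCGG, which differs from the form TTTGGCGC in its last base alone. A match, or its absence, describes the letters in this window only.

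In the exposed lines no gene of the 51 passed as lower in sorted cells. In M1B26, 5 of 51 were higher in sorted than in unsorted cells, where 2.56% of all genes tested were, and none was lower, where 1.65% were (median 0.62, all genes 0.10). These were GINS4 (1.74 ± 0.46), RFC5 (1.53 ± 0.20), MCM2 (1.497 ± 0.39), TK1, the thymidine salvage kinase (1.30 ± 0.32), and SLBP (0.92 ± 0.24), with limma adjusted p from 0.000607 to 0.0474. Other probe sets above the level of testing gave 0.18 for GINS4, 0.44 and -0.21 for RFC5 and 0.67 for TK1. The sizes of these genes thus depend on the probe set kept. MCM2 read 943 and 1157 in M1B26 CD10+ cells and 1711 and 1473 in M1B26 CD10- cells, against 285 and 729 in unsorted M1B26 cells. SLBP read 1959 and 2082 in CD10+ cells and 2787 and 2686 in CD10- cells, against 951 and 1622 in unsorted cells. In both genes the 4 sorted arrays lay above both unsorted ones, of which replicate 1 was the lower. Calls over all genes tested fell as well when that replicate was left out in M1B26 and MC26. Without unsorted replicate 1 of M1B26 and MC26, a setting chosen after seeing the data, the median of the 51 was 0.05. The count of 5 also fell when any 1 sorted array of M1B26 or MC26, or either unsorted MCF10A-CT array, was left out.

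In MC26 none of 51 passed in limma in either direction (background 0.518% higher and 0.304% lower), 9 had an unadjusted p under 0.05, where 14.5% of all genes tested did, and the median was 0.47 with 45 genes above 0. The smallest p belonged to RFC5 (0.85 ± 0.20, limma adjusted p = 0.0565), TK1 (1.27 ± 0.32, limma adjusted p = 0.0753), GINS4 (1.74 ± 0.46, limma adjusted p = 0.0901), MCM2 (1.30 ± 0.39, limma adjusted p = 0.1315) and FAM111B (limma adjusted p = 0.1396). Other tested probe sets gave 0.38 and 0.03 for RFC5, 1.04 for TK1 and 0.02 for GINS4. FAM111B read 13.2 on unsorted replicate 1, below the level of testing, so that no size is given for it. MCM2 read 1163 and 1466 in MC26 CD10+ cells and 1460 in both MC26 CD10- arrays, against 380.3 and 828 in unsorted MC26 cells. Without unsorted replicate 1 of MC26 and M1B26 the median was -0.13.

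The difference between lines in sorted minus unsorted values was itself tested, as that of M1B26 or MC26 less that of MCF10A-CT. The 2 comparisons share the MCF10A-CT arrays. For M1B26, 47 of 51 were higher (9.14% of all genes tested) and 0 lower (2.73%), with a median of 2.54 against 0.24 for all genes. For MC26, 42 of 51 were higher (4.03%) and 0 lower (2.04%), with a median of 2.30 against 0.08. MCM10 had the widest difference in both, 4.54 ± 1.16 for M1B26 (limma adjusted p = 0.0222) and 4.39 ± 1.16 for MC26 (limma adjusted p = 0.0377). TYMS had the smallest p in both, at 2.80 ± 0.39 for M1B26 (limma adjusted p = 0.00237) and 2.47 ± 0.39 for MC26 (limma adjusted p = 0.0056). RFC1 was near 0 in both (0.27 and 0.22), and RFC1, POLE, E2F1 and FAM111B passed in neither. The medians stayed above 0 in every setting tried, whereas the counts depended on single arrays. Calls over all genes tested fell as well without unsorted replicate 1 of both exposed lines. The counts of the 51 fell without unsorted replicate 1 of the exposed line compared or of MCF10A-CT. For MC26 the count also fell without unsorted MCF10A-CT replicate 2. Without unsorted replicate 1 of both exposed lines the median for M1B26 was 2.00. Without replicate 2 of sorted MCF10A-CT in both gates both counts fell, and the median for M1B26 was 2.03.

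**Figure D4:**
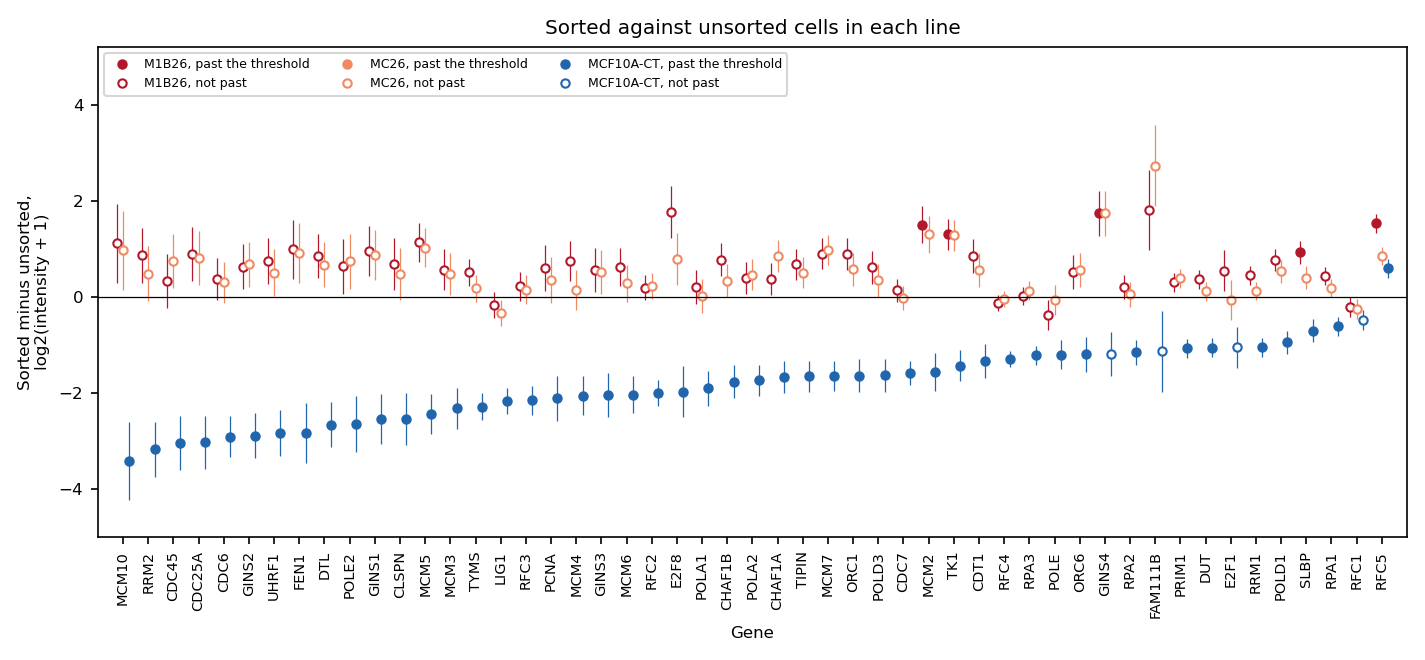
Sorted minus unsorted difference in log2(intensity + 1) (vertical axis) of the 51 genes (horizontal axis, ordered by the MCF10A-CT value) in M1B26, MC26 and MCF10A-CT, with bars of 1 SE and filled points for a limma adjusted p under 0.05. The MCF10A-CT points run from -3.43 for MCM10 to 0.59 for RFC5, whereas most M1B26 and MC26 points lie between 0 and 1, with 5 M1B26 and 0 MC26 points filled.

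Within a gate, the lines were compared directly. These 4 comparisons all set an exposed line against sorted MCF10A-CT cells, the lowest groups, and pairs of them share those arrays. In CD10- cells, 47 of 51 genes were higher in M1B26 than in MCF10A-CT (19.8% of all genes tested) and 0 lower (6.66%), with a median of 2.25 against 0.23 for all genes, and 47 of 51 were higher in MC26 (13.4%) and 0 lower (6.54%), with a median of 2.25 against 0.13. RFC1, POLE and E2F1 passed in neither, FAM111B did not pass for M1B26 and RFC5 did not pass for MC26. In CD10+ cells, 44 of 51 were higher in M1B26 than in MCF10A-CT (21.1%) and 0 lower (5.32%), with a median of 1.68 against 0.31, and 44 of 51 were higher in MC26 (7.99%) and 0 lower (5.47%), with a median of 1.94 against 0.08. POLE and RFC1 passed in neither. RPA2, ORC6, CHAF1A, CDT1 and FAM111B did not pass for M1B26, nor did RPA1, RFC5, POLD1, POLA1 and E2F1 for MC26.

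Named genes show the spread of these values. In CD10- cells CDC6 read 864 and 602 in M1B26 and 766 and 764 in MC26, against 105 and 36.6 in MCF10A-CT. Its difference was 3.52 ± 0.50 for M1B26 (limma adjusted p = 0.000498) and 3.60 ± 0.50 for MC26 (limma adjusted p = 0.000591). In CD10+ cells CDC6 read 461 and 478 in M1B26 and 621 and 804 in MC26, against 139.9 and 49.6 in MCF10A-CT, differences of 2.48 and 3.07. In neither gate did the exposed lines overlap the control line. PCNA read 5160 and 4261 in M1B26 CD10- cells and 3557 and 3946 in MC26 CD10- cells, against 1448 and 486 in MCF10A-CT CD10- cells, differences of 2.48 (limma adjusted p = 0.00517) and 2.16 (limma adjusted p = 0.0146). POLE, the catalytic subunit of the leading-strand polymerase, read 71.1 and 69.8 in M1B26 CD10+ cells and 70.3 and 127.9 in MC26 CD10+ cells, against 79.3 and 66.1 in MCF10A-CT CD10+ cells. Its values overlapped (-0.04 ± 0.36 for M1B26, limma adjusted p = 0.9502). The CD10+ counts depended on single arrays. Calls over all genes tested fell as well when replicate 2 of both sorted MCF10A-CT gates was left out, so that such a fall is not particular to the 51. The CD10+ counts of the 51 fell without MCF10A-CT CD10+ replicate 2 alone, and without either CD10+ array of the exposed line compared. In CD10- cells the MC26 count fell without MCF10A-CT CD10- replicate 2 alone. Without replicate 2 of both sorted MCF10A-CT gates the medians for M1B26 were 1.17 in CD10+ cells and 1.77 in CD10- cells. Without moderation of the variance across genes 0 of 51 passed in any of the 4 comparisons, but so few of all 12171 genes did (0 to 2 in each) that this count says nothing of the 51.

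In unsorted cells no difference between the lines was detected in these genes. No gene passed in limma in M1B26 against MCF10A-CT (background 0.542% higher, 0.131% lower), where 0 of 51 had an unadjusted p under 0.05 (7.22% of all genes tested), or in MC26 against MCF10A-CT (background 0.197% higher, 0.123% lower), where 2 did (7.99%), POLD1 (-0.61 ± 0.27) and CHAF1A, a subunit of the chromatin assembly factor (-0.83 ± 0.39). None passed in M1B26 against MC26 (background 0.0739% higher, 0.0246% lower), where E2F8 alone had an unadjusted p under 0.05 (-1.34 ± 0.62), against 4.54% of all genes tested. The medians were -0.47, -0.21 and -0.21, and with unsorted replicate 1 of both exposed lines left out those against MCF10A-CT were 0.02 for M1B26 and 0.31 for MC26. CDT1 had the smallest p for M1B26 against MCF10A-CT, reading 196 and 460 in M1B26, against 549.8 and 530.1 in MCF10A-CT (-0.84 ± 0.41, limma adjusted p = 0.724). RRM2 read 1222 and 3789 in M1B26 and 1112 and 5321 in MC26, against 3162 and 3104 in MCF10A-CT, so that replicates of an exposed line lay on both sides of the control.

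The CD10+ and CD10- gates were compared within each line. None of the 51 genes passed in limma in any line when the arrays were taken as unpaired. The call depends on the pairing. Deviations of same-numbered CD10+ and CD10- arrays correlated over all genes, at 0.18 for M1B26, 0.36 for MC26 and 0.63 for MCF10A-CT, and the labels do not say whether a number marks a shared sort. When only the sorted arrays were fitted and the replicate number entered as a block, 15 of 51 were lower in M1B26 CD10+ cells, where 8.85% of all genes tested were, and 0 were higher, where 12.2% were. In MCF10A-CT 3 were higher in CD10+ cells, where 0.501% were, and 0 lower, where 0.14% were, and in MC26 none passed (background 0.115% higher, 0.0575% lower). The 15 were MCM2, MCM10, CDC6, ORC1, ORC6, GINS1, GINS2, CDC25A, DTL, TIPIN, POLE, POLE2, RFC4, UHRF1 and CHAF1B, with CDC25A at the smallest limma adjusted p of 1.79e-07. The values that follow are those of the unpaired fit. In M1B26, where 3.76% of all genes tested were higher in CD10+ cells and 2.74% lower, 1 gene had an unadjusted p under 0.05, against 19.4% of all genes tested, RFC4, a small subunit of the clamp loader (-0.51 ± 0.20, limma adjusted p = 0.156). The median was -0.40 against 0.01 for all genes, with 4 genes above 0 (POLA2, E2F1, RFC5 and E2F8). Both CD10+ arrays read below both CD10- arrays in 38 of 51 genes, against 25.5% of all genes tested, and CD10+ cells were lower in both same-numbered pairs in 40 of 51, against 31.8%. The widest value on the probe sets kept was that of CDC25A, which read 109 and 129 in CD10+ cells, against 293 and 313 in CD10- cells (-1.34 ± 0.65, limma adjusted p = 0.273). Its other probe sets differed less. On 1 of them CD10+ cells read 61.1 and 41.1 against 56.3 and 88.95, with overlap, and on the other 80.8 and 132.9 against 153.9 and 153.1. ORC1, an ATPase subunit of ORC, read 135.5 and 139.5 in CD10+ cells, against 282 and 204 in CD10- cells (-0.80 ± 0.39, limma adjusted p = 0.282). TIPIN, a fork protection factor, read 394 and 549 in CD10+ cells, against 816 and 788 in CD10- cells (-0.78 ± 0.37, limma adjusted p = 0.266). On the probe sets kept, these 3 genes did not overlap between gates. By role, the medians were -0.72 for fork protection and CRL4, -0.56 for firing, -0.52 for chromatin and histone supply, -0.47 for licensing, -0.35 for the clamp, loader and RPA, -0.25 for polymerases, -0.12 for nucleotides and -0.05 for G1-S control. RRM2 (-0.12) and TYMS (-0.03) lay close to 0.

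Other markers moved with this gate. Of the 6 mammary epithelial markers tested 4 were lower in M1B26 CD10+ cells, where 333 of all 12171 genes tested were. The summed intensity of the list was 9573 to 10920 in CD10+ cells, against 21640 to 27160 in CD10- cells. EPCAM, an epithelial adhesion molecule, read 111 and 190.5 in CD10+ cells, against 2173 and 2857 in CD10- cells. The 8 stromal markers summed to 5866 to 5878 in CD10+ cells, against 352 to 402.5 in CD10- cells, nearly all of it from DCN and LUM. COL1A1 read 119.5 and 182 in CD10+ cells, against 98.1 and 113 in CD10- cells, and the other 5 stromal markers read at most 24.75 on these 4 arrays. Their part in the replication gene values was not tested. The leukocyte list summed to 234 to 273 in CD10+ cells, against 366 to 485 in CD10- cells, and PTPRC and CD3E lay near background.

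In MC26, where 0% of all genes tested passed in either direction, the median was -0.11 against -0.10 for all genes and no gene had an unadjusted p under 0.05, against 0.822% of all genes tested. CD10+ cells were lower in both same-numbered pairs in 15 of 51 genes, against 29.2% of all genes tested. POLE had the smallest p (-0.36 ± 0.36). In MCF10A-CT, where 0% passed as well, 38 of 51 genes lay above 0 (median 0.12, all genes -0.05), and CDC45 alone had an unadjusted p under 0.05, against 1.36% of all genes tested (1.47 ± 0.64, limma adjusted p = 0.9998). With the block, CDC45, MCM10 and RRM2 were the 3 called higher. The CDC45 value rested on CD10- replicate 2 at background, the values given above being 90.4 and 39.3 in CD10+ cells, against 59.3 and 7.003 in CD10- cells. MCM10 lay at background on that array as well, with 98.3 and 22.2 in CD10+ cells, against 79.1 and 6.99 in CD10- cells. ORC6 read 406 and 201 in CD10+ cells, against 281.5 and 158.0 in CD10- cells (0.43 ± 0.42, limma adjusted p = 0.9998), its replicates overlapping. Whether the gates differed by line was tested as well. Without the block none of 51 passed for M1B26 against MCF10A-CT (background 0.666% higher, 0.715% lower), where 3 had an unadjusted p under 0.05 against 11.2% of all genes tested, RFC4 (-0.69 ± 0.28), CHAF1B, another subunit of the chromatin assembly factor (-1.24 ± 0.56) and CHAF1A (-1.19 ± 0.55), nor for MC26 against MCF10A-CT (background 0% in either direction), where 0 did against 0.682%. With it 15 were lower for M1B26 and 0 higher, where 4.53% of all genes tested were lower and 7.01% higher, and 1 was lower for MC26, where 0.0739% were lower and 0.0575% higher.

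**Figure D5:**
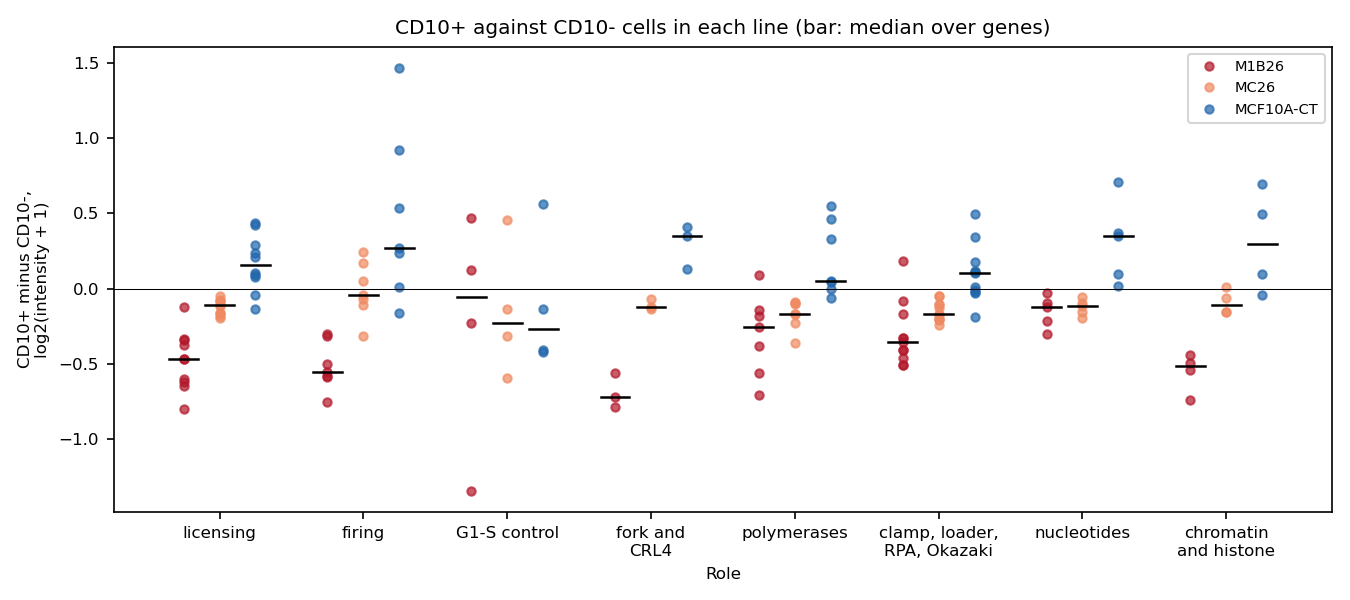
CD10+ minus CD10- difference in log2(intensity + 1) (vertical axis) of each of the 51 genes by role (horizontal axis) in M1B26, MC26 and MCF10A-CT, with bars for the median over genes. The M1B26 points lie mostly below 0 with medians of -0.72 to -0.05, and no point in any line passed an adjusted p of 0.05 in the unpaired fit.

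Related lists show how far the pattern went beyond the 51 genes. Of 58 other replication and S-phase genes 53 were tested. Of these, 44 were lower in sorted than in unsorted MCF10A-CT cells and 0 higher (median -1.33), where 1904 and 801 of all 12171 genes tested were. RAD51AP1, a recombination factor, stood at -3.32, TIMELESS, the partner of TIPIN, at -2.12, PRIM2, the large primase subunit, at -1.52 and ORC3 at -1.50. In the M1B26 gates 1 of the 53 was lower in CD10+ cells, where 2.74% of all genes tested were, E2F7, a repressive E2F (-1.40 ± 0.31, limma adjusted p = 0.0108). All 50 genes of a mitotic list were lower in sorted MCF10A-CT cells (median -1.93), where 1904 of all 12171 genes tested were. Many of the 50 belong to the study's signature, and BUB1B, a spindle checkpoint kinase, stood at -2.70. The lists are set side by side here as counts, with no test between them. Sorted MCF10A-CT replicate 2 read below replicate 1 in both gates for 46 of 51 replication genes and 31 of 50 mitotic genes (44.8% of all genes tested). CD10+ cells read above CD10- cells in both same-numbered MCF10A-CT pairs for 28 of 51 replication genes, against 20.3% of all genes tested. No such count is given for the mitotic genes, many of which were chosen by the study for that difference on these arrays. In M1B26, both CD10+ arrays read below both CD10- arrays for 38 of 51 replication genes and 14 of 50 mitotic genes, where 25.5% of all genes tested did so. Sorted against unsorted cells gave a median of 0.62 for the replication genes and 0.08 for the mitotic genes in M1B26, and of 0.47 and 0.08 in MC26. In that comparison 0 mitotic genes passed in either line. Of all 12171 genes tested, 312 were higher and 201 lower in M1B26, and 63 higher and 37 lower in MC26.

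Of the 11 genes of the list of CDK inhibitors and cell-cycle exit 8 were tested. In sorted against unsorted MCF10A-CT cells 3 of the 8 were higher, where 6.58% of all genes tested were: CDKN1C, encoding p57 (2.21, limma adjusted p = 0.00667), BTG1, an antiproliferative factor (1.35, limma adjusted p = 0.0114), and CDKN2D, encoding p19. CDKN2D read 25.9 and 61.0 in CD10+ cells and 22.4 and 50.0 in CD10- cells, against 12.1 and 3.75 in unsorted cells (limma adjusted p = 0.00628). Both unsorted arrays lay below the level of testing, so that no size is given. CDKN2D also read higher on the sorted arrays of MC26 (limma adjusted p = 0.0741) and M1B26 (limma adjusted p = 0.1883), where it did not pass. Its unsorted readings there were 6.72 and 15.9 in MC26 and 19.2 on both M1B26 arrays, below or near the level of testing. CDKN1C read 641 and 362 in CD10+ cells and 516 and 394 in CD10- cells, against 89.4 and 112 in unsorted cells. All 4 sorted arrays lay well above both unsorted ones. CDKN1A, encoding p21, read 421 and 1020 in CD10+ cells and 416 and 1394 in CD10- cells, against 612 and 376 in unsorted cells, and CDKN1B, encoding p27, read 664 and 1238 in CD10+ cells and 711.5 and 1555 in CD10- cells, against 866 and 760.4 in unsorted cells. Both inhibitors overlapped between sorted and unsorted cells and were higher in replicate 2, the replicate with the lower replication genes, in both gates. Replicate 2 was the lower one in both gates for CDKN1C and for TOB1, and the higher one for CDKN2D, BTG1, CCNG2 and RBL2. The part of the listed genes in the replication gene values was not tested. In the M1B26 gates CDKN1C was higher in CD10+ cells, at 238 and 185 against 45.3 and 29.5 in CD10- cells (2.49, limma adjusted p = 0.0147), and all 8 lay above 0.

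Outside these lists, the genes whose 9 group means were most like the mean of the 51 were EXOSC2, CSTF1, TUBB4B, FOXRED1, EED, DNAJC9, EIF5 and SNRNP40, with Pearson r from 0.9896 to 0.9935 over the 9 groups. Their differences between sorted and unsorted MCF10A-CT cells ran from -1.71 for DNAJC9 to -0.65 for CSTF1. The r is a description over groups of 2 arrays each, in which the 2 sorted MCF10A-CT groups carry most of the range.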

How the data were processed

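RNA from the 18 samples was amplified with a 3' IVT kit and hybridised to HG-U133 Plus 2.0 arrays. The deposited values are linear intensities that the authors computed with Affymetrix Expression Console (MAS5), scaled to equal medians; versions are not given in the sources used here, and the RMA named in the methods is not what these values hold. Of 54675 probe sets, 41091 with 1 gene symbol were kept, 1801 with several and 11721 with none were left out, as were 62 controls. Per gene the probe set with the highest mean log2(intensity + 1) was used. Genes whose mean exceeded log2 3.93, an intensity of 14.3, were tested (12171). limma 3.58.1 in R 4.3.3 was fitted to 9 group means with an intensity trend (9 residual and 6.28 prior degrees of freedom), and p-values were adjusted by Benjamini-Hochberg within each contrast over all genes tested. Array number limits the precision: 2 arrays per group. The fit was checked on simulated data. The members, lists and comparisons were chosen with earlier results of these data known. The rule for named genes was, in each contrast, up to 12 members past the threshold by size, or the 5 with the smallest p where none passed, the extremes of each role and a fixed set from MCM2 to RFC1, of which the text gives those that bear on each result. Alternatives were a pseudocount of 16, quantile normalization, centring, no filter, the mean over probe sets, fitting only the arrays compared, no trend, no moderation, a replicate block and leaving out each array. Leaving out 2 arrays together was added after seeing the data. Tables and plots were made with Python 3.11.15, pandas 2.3.3 and matplotlib 3.10.9.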

Additional observations from a re-analysis of the deposited data

Results flagged for a closer look

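The results listed here met the condition that an effect differed between lines by a test of the difference itself, the difference between sorted and unsorted cells in an exposed line less that in MCF10A-CT (limma, adjusted p under 0.05). For M1B26, 47 members met it, with the widest differences in MCM10 (4.54), RRM2 (4.05), CDC25A (3.92), FEN1 (3.82), E2F8 (3.75), MCM5 (3.58), UHRF1 (3.58), GINS2 (3.52), DTL (3.51), GINS1 (3.51), CDC45 (3.38) and POLE2 (3.29). For MC26, 42 members met it, with the widest in MCM10 (4.39), CDC25A (3.84), CDC45 (3.796), FEN1 (3.74), RRM2 (3.66), GINS2 (3.57), MCM5 (3.47), GINS1 (3.42), POLE2 (3.39), UHRF1 (3.34), DTL (3.33) and CDC6 (3.21). Both comparisons share the 6 MCF10A-CT arrays, and both counts depend on unsorted replicate 1 of the exposed lines.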

How the results depend on the processing

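The rule for named genes gave 89 called gene values, those with the widest differences in each contrast. Recomputed 2540 times over all settings, 2281 stayed past the threshold, 259 did not and 0 reversed. Calls with smaller differences were not followed in this way, so that the tally does not describe the counts of all members called. No explanation of a change was tested. Counts below are of the 51 genes, and calls over all genes tested changed between settings as well. Quantile normalization gave 1 call for CD10 in M1B26, 29 for M1B26 against MCF10A-CT in CD10+ cells, and 1 and 3 for sorted against unsorted MC26 and M1B26 cells. Centring gave 1 for CD10 in M1B26 and 2 for sorted MC26 cells. Fitting only the arrays compared gave 5 for CD10 in M1B26. Without moderation 0 passed in the 4 comparisons of lines within a gate, where 0 to 2 of all 12171 genes did. For sorted against unsorted M1B26 cells, 2 passed with no filter, 3 with the mean over probe sets and 1 with no trend. Without unsorted replicate 1 of MC26 and M1B26, medians were 0.31 and 0.0248 for unsorted MC26 and M1B26 against MCF10A-CT, -0.13 and 0.0493 for sorted against unsorted cells of MC26 and M1B26 (1 call in M1B26), and the line difference in sorting gave 14 calls for MC26 and 27 for M1B26 (median 2.00). Without sorted MCF10A-CT replicate 2, CD10+ counts were 15 for MC26 and 16 for M1B26, sorted MC26 cells had 2, and medians for M1B26 were 1.17 in CD10+ cells, 1.77 in CD10- cells and 2.03 in the line difference in sorting.

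Replicate numbers were not taken as pairs in the values above. Same-numbered deviations correlated at 0.63, 0.36 and 0.18 between the gates of MCF10A-CT, MC26 and M1B26, but at -0.01 to 0.12 between unsorted and sorted cells of a line. With a replicate block, 5 and 8 genes passed for sorted against unsorted MC26 and M1B26 cells. With the block on sorted arrays alone, 15 were lower in CD10+ M1B26 cells and 3, CDC45, MCM10 and RRM2, higher in CD10+ MCF10A-CT cells, and the line difference of the gates gave 15 for M1B26 and 1 for MC26.

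Leaving out 1 array at a time gave these ranges of medians. Each such fit leaves 1 array in a group, so that no count of calls is given. For the exposed lines against MCF10A-CT within a gate and for sorted against unsorted cells, the counts changed in these fits. They did so among the genes described here and over all genes tested alike. The median for CD10 in MCF10A-CT ran from -0.18 to 0.67. That of the line difference of the gates ran from -0.99 to -0.17 for M1B26 and from -0.82 to 0.0741 for MC26. Unsorted medians ran from -0.97 to 0.0248 for M1B26 and -0.82 to 0.31 for MC26 against MCF10A-CT, and from -0.82 to 0.34 for M1B26 against MC26. In CD10- cells the median against MCF10A-CT ran from 1.83 to 2.72 for MC26 and from 1.77 to 2.68 for M1B26. In CD10+ cells M1B26 gave 9 to 47 (median 1.17 to 1.99) and MC26 gave 5 to 47. Sorted against unsorted cells gave 1 to 7 in M1B26 (median 0.0493 to 1.09), 0 to 3 in MC26 (median -0.13 to 1.02) and 29 to 48 in MCF10A-CT. The line difference in sorting gave a median of 2.00 to 3.06 for M1B26 and of 1.87 to 2.77 for MC26.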
